A study of Mus musculus with 8 samples.

Results

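Brown adipose tissue (BAT) of mice kept in the cold was compared with that of mice at 22 °C by RNA-Seq in 4 libraries. Libraries were chosen by their labelled housing temperature: 2 came from mice kept at 22 °C (replicates 4 and 7) and 2 from mice placed at 4 °C for 24 h (replicates 2 and 11), out of 8 libraries in the series. All 4 came from male C57BL/6 mice 10 to 12 weeks old, with no genetic modification stated. The cold mice spent 20 h at 4 °C and were then fasted for 4 h more before tissue was taken. Fasting of the mice at 22 °C is not given in the sources used here, so cold and fasting cannot be told apart. The labels do not say whether a library held the tissue of 1 mouse, and all p-values measure the spread between these libraries only. Values are given throughout for 22 °C replicates 4 and 7 and then for 4 °C replicates 2 and 11, in that order.

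BAT makes heat by burning fatty acids and glucose in mitochondria whose inner membrane is made leaky to protons by uncoupling protein 1 (Ucp1). In the cold, sympathetic nerves release noradrenaline, which acts on beta-adrenergic receptors of brown adipocytes, raises cAMP, starts lipolysis and switches on thermogenic genes. The depot lies against the muscles of the back, so that dissected tissue can carry skeletal muscle, and cold also makes muscle shiver.

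The deposited gene levels were rescaled in each library to TPM, an abundance per length with the same total in every library, over autosomal mRNA and lncRNA genes. Of 49452 genes listed, 45146 are autosomal and 17470 of these were tested. X and Y genes were left out because the table lists all of them at 0 in both 22 °C libraries, and at most 1 mitochondrially encoded gene is above 0 there. Between 13864 and 14920 autosomal genes reached 1 TPM per library. On a transcript of 2000 bases, 1 sequenced fragment was worth 0.0205 to 0.0230 TPM. Brown adipocyte genes were abundant in every library, with Cidea at 2763 and 2519.8 TPM at 22 °C and 1974 and 2363 TPM at 4 °C. Lhx8, a marker of classical brown adipocytes, lay between 4.05 and 6.03 TPM, and the white-fat gene Hoxc9 was too low to be tested. Of 9 white adipocyte markers found, 6 were tested, and they summed to 862 and 512 TPM at 22 °C and to 981 and 623 TPM at 4 °C. Which cells made these transcripts was not tested.

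The libraries also differed in ways that the groups do not explain. The satellite-repeat gene Gm10800 stood at 6464 and 447 FPKM in 22 °C replicate 4 and 4 °C replicate 11 (satellite-high) and at 4.13 and 1.42 FPKM in 22 °C replicate 7 and 4 °C replicate 2 (satellite-low). In satellite-low libraries, genes other than mRNA and lncRNA took 33.4% and 36.9% of the autosomal FPKM sum, against 6.38% and 4.06% in satellite-high libraries. Each temperature has 1 library of either type, and differences within a type are given where they matter. Skeletal muscle markers summed to 3777 and 993 TPM at 22 °C and to 19550 and 11085 TPM at 4 °C, so every 4 °C library carried more muscle transcript than every 22 °C library. In bulk tissue, fewer cells of a type and less RNA per cell cannot be told apart.

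The first question was how many transcripts differ after 24 h of cold. A gene was called higher or lower when limma gave an adjusted p under 0.05 and the log2 fold change was 1 or more in size, and "rose" and "fell" are used for such genes only. Of 17470 autosomal genes, 419 rose (2.40% of those tested) and 586 fell (3.35%), 1005 in all, and 5416 had an unadjusted p under 0.05. The called genes comprised 364 mRNA genes that rose and 478 that fell, 40 lncRNA genes that rose and 69 that fell, and 15 and 39 genes of other types. Of the 1005, 814 differed by 2-fold or more in the same direction within both library types. The fold change used for the call is the mean of these differences within types, so this count is no independent evidence. Without the minimum level set for testing (0.1 FPKM in 2 libraries) limma called 0 genes, with 5905 at an unadjusted p under 0.05. A fit of all 8 libraries with muscle marker content as a covariate called 14. The split between directions depends on the scaling: 41.7% of calls were rises here, 64.4% after the libraries were centred on their medians (831 calls) and 84.5% with FPKM as deposited (252 calls). The median log2 fold change over all tested genes was -0.19 here, and it moved by 0.18 with median centring and by 0.26 with deposited FPKM. Fold changes are best read against that median, and the counts of every list below against the 2.40% and 3.35% of all genes that rose and fell. For counts of members higher or lower within both library types the share of all genes is not given here. Such counts are descriptions only.

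The calls also depend on the number of libraries. With 1 library left out, 1 residual degree of freedom remains and the lone library is assumed to vary like the other group, so fewer calls follow in part from the design. Leaving out 22 °C replicate 4 left 114 calls, and leaving out 22 °C replicate 7, 4 °C replicate 2 or 4 °C replicate 11 left 0 in limma, with 3589, 3878 and 4871 genes at an unadjusted p under 0.05. Of 147 genes followed through these fits, 0 changed sign without 22 °C replicate 4, 22 °C replicate 7 or 4 °C replicate 2, and 1 (Asns) did without 4 °C replicate 11. As a description that needs no estimate of spread, 767 genes (4.39%) had both 4 °C libraries above both 22 °C libraries with mean log2 levels at least 1 apart, and 923 genes (5.28%) had both below. An exact permutation test of 2 against 2 libraries cannot give a two-sided p below 0.333.

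Of 13 brown adipocyte markers tested, 3 rose and 0 fell (median log2 fold change 0.22), beside 2.40% and 3.35% of all genes. Those that rose were Elovl3, Dio2 and Ppargc1a. Elovl3, an elongase of very long chain fatty acids that is a classical marker of cold-activated BAT, stood at 37.7 and 137 TPM at 22 °C and 1856 and 1040.5 TPM at 4 °C (log2 fold change 4.25, SE 0.66, adjusted p = 0.0409). Dio2, the deiodinase that makes active thyroid hormone inside the cell, measured 102 and 109 TPM at 22 °C against 549.7 and 796 TPM at 4 °C (log2 fold change 2.64, SE 0.23, adjusted p = 0.0271). Ppargc1a encodes the coactivator PGC-1alpha, which drives mitochondrial gene programmes, and its level was 54.0 and 54.9 TPM at 22 °C and 365 and 304 TPM at 4 °C (log2 fold change 2.59, SE 0.17, adjusted p = 0.0216). For all 3 genes the groups did not overlap (4.39% of all genes were apart and higher), which is no separate evidence in genes chosen by the call. For Dio2 and Ppargc1a the 22 °C libraries were nearly equal.

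Ucp1 itself differed between the 22 °C libraries. It measured 3477 and 7220.4 TPM at 22 °C and 21938 and 22209.7 TPM at 4 °C, so both cold libraries lay above both 22 °C libraries, by a log2 fold change of 2.14 (SE 0.53). Its adjusted p of 0.0744 missed the threshold. The difference was 2.67 within satellite-high and 1.60 within satellite-low libraries, and the adjusted p ranged from 0.0279 with limma's robust variance step to 0.318 without 22 °C replicate 4. Cidea, a lipid droplet protein, had a log2 fold change of -0.29 (adjusted p = 0.507).

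Upstream of Ucp1, 2 of 27 tested adrenergic and cAMP genes rose and 1 fell (median -0.20), beside 2.40% and 3.35% of all genes, so nothing is read from the count and the genes are given singly. Adcy3, an adenylyl cyclase that makes cAMP, rose from 102 and 179 TPM to 841 and 946 TPM (log2 fold change 2.71, SE 0.31, adjusted p = 0.0342). Pde4d, a phosphodiesterase that breaks cAMP down, also rose (129 and 136 against 261 and 285 TPM, log2 fold change 1.04, adjusted p = 0.0399). The beta1-adrenergic receptor Adrb1 fell, from 16.3 and 19.7 TPM to 4.00 and 5.28 TPM (log2 fold change -1.75, SE 0.21, adjusted p = 0.0352). The receptor most typical of adipocytes, Adrb3, measured 156 and 121 against 77.4 and 98.6 TPM and was not called (adjusted p = 0.126).

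Among 22 thermogenic regulators, 4 rose and 0 fell (median 0.11), beside 2.40% and 3.35% of all genes. Besides Ppargc1a these were Perm1, a muscle-enriched regulator of oxidative genes (15.8 and 9.35 against 95.8 and 88.8 TPM, log2 fold change 2.82, adjusted p = 0.03), the transcription factor Irf4 (33.4 and 15.1 against 89.2 and 125 TPM, log2 fold change 2.18, adjusted p = 0.0494) and the fasting-induced factor Klf15 (60.7 and 45.3 against 183 and 199 TPM, log2 fold change 1.84, adjusted p = 0.0338). All 4, chosen by the call, had higher levels in both cold libraries. Perm1 is also a muscle gene, and its log2 fold change was 2.18 when muscle markers entered the fit as a covariate.

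**Figure D1:**
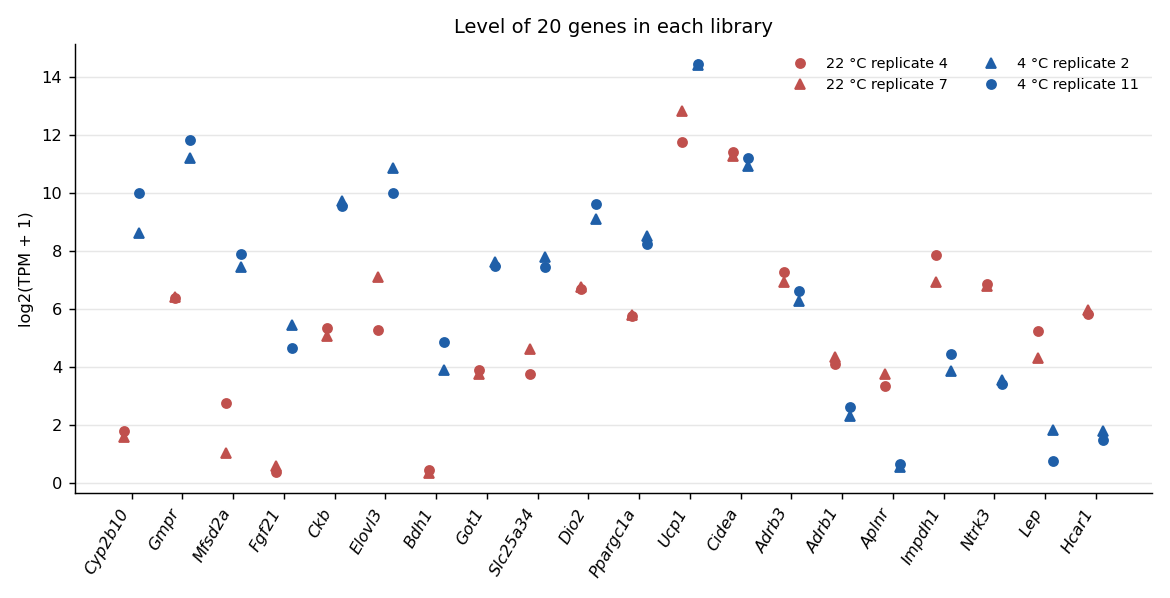
Level of 20 genes in each library, as log2(TPM + 1) on the vertical axis; red symbols are 22 °C and blue 4 °C libraries, circles satellite-high and triangles satellite-low libraries. Cyp2b10, Gmpr, Ckb and Got1 sit far above their 22 °C levels in both cold libraries and Hcar1, Ntrk3 and Impdh1 far below, whereas Cidea lies at nearly one height in all 4 libraries.

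The largest single rise was that of Cyp2b10 (ENSMUSG00000030483, chr7:25897620-25926624, GRCm38), a cytochrome P450 best known as a xenobiotic-inducible liver enzyme. It went from 2.46 and 2.02 TPM to 391 and 1028 TPM (log2 fold change 7.62, SE 0.47, adjusted p = 0.0216). It was the only called gene among 14 tested members of the P450 and xenobiotic receptor list. Cyp4b1 (72.6 and 74.0 against 495 and 155 TPM) and Cyp1a1 (12.9 and 3.0 against 35.7 and 31.4 TPM) were also higher in both cold libraries with adjusted p = 0.0978 and 0.0862. Reads of close Cyp2b paralogs can be shared between gene models, so part of the Cyp2b10 signal is uncertain.

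The 10 mRNA genes with the largest rises were Cyp2b10, Trim63, Ankrd2, Csrp3, Mfsd2a, Tnni1, Myl2, Xirp1, Hspb7 and Gmpr, with log2 fold changes from 5.12 to 7.62. Of these, Trim63, Ankrd2, Csrp3, Tnni1, Myl2, Xirp1 and Hspb7 are genes of skeletal or heart muscle and are taken up with the muscle lists. Mfsd2a, a transporter of lysophospholipids, measured 5.83 and 1.07 TPM at 22 °C against 176 and 239 TPM at 4 °C (log2 fold change 5.78, SE 0.59, adjusted p = 0.0319). Its 22 °C libraries differed from each other, and both were far below the cold libraries.

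The 10 largest falls among mRNA genes were those of Hcar1, Lep, Ntrk3, Impdh1, Fer1l6, Aplnr, Acsm3, Lctl, Rasl12 and Zwilch, with log2 fold changes from -4.25 to -2.44. Hcar1 (chr5:123876736-123880020) is the lactate receptor through which lactate restrains lipolysis, and it had the strongest fall: 55.9 and 62.3 TPM at 22 °C and 2.54 and 1.80 TPM at 4 °C (log2 fold change -4.25, SE 0.20, adjusted p = 0.0181). Lep, the leptin gene, measured 36.7 and 18.8 TPM at 22 °C against 2.61 and 0.723 TPM at 4 °C (log2 fold change -3.45, SE 0.48, adjusted p = 0.0388). Ntrk3, the receptor of neurotrophin-3, measured 117 and 110.2 TPM at 22 °C against 10.7 and 9.86 TPM at 4 °C (log2 fold change -3.35, SE 0.15, adjusted p = 0.0177). For Hcar1 and Ntrk3 the libraries of each group lay close to each other and the groups far apart. Aplnr, the apelin receptor of endothelial cells, stood at 9.26 and 12.8 against 0.481 and 0.578 TPM (log2 fold change -2.96, adjusted p = 0.0225). Acsm3, a medium-chain acyl-CoA synthetase, stood at 204 and 192 against 19.8 and 31.5 TPM (log2 fold change -2.93, adjusted p = 0.0265). Lctl and Zwilch overlap on opposite strands, as do Acsm3 and Eri2. The libraries were made with a directional kit, but whether strand was used in counting is not given in the sources used here, so such partners may share reads.

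Of 10 receptors listed for their action on lipolysis, most of them inhibitory but with the stimulatory adenosine receptors Adora2a and Adora2b among them, 2 fell and 0 rose (median -0.53; 3.35% of all genes fell): Hcar1 and its relative Hcar2, the niacin and beta-hydroxybutyrate receptor (21.5 and 15.2 against 3.93 and 2.86 TPM, log2 fold change -2.13, adjusted p = 0.0351). The prostaglandin receptor Ptger3 (29.4 and 79.8 against 17.0 and 16.8 TPM, adjusted p = 0.119) and the short-chain fatty acid receptor Ffar2 (13.3 and 10.8 against 5.78 and 3.56 TPM, adjusted p = 0.0612) were lower in both cold libraries without passing the test. Hcar1, Hcar2, Ptger3 and Ffar2 couple to inhibitory G proteins. Of the 10 receptors, 6 had lower and 4 higher means in the cold, with log2 fold changes up to 0.60.

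Of 19 lipolysis and lipid droplet genes 1 fell and 0 rose, beside 3.35% and 2.40% of all genes. The gene that fell was Pnpla3, a lipid droplet protein raised by feeding (73.2 and 137 against 27.1 and 24.8 TPM, log2 fold change -1.91, adjusted p = 0.0445). Fatty acid synthesis and desaturation gave 1 rise and 0 falls among 16 genes (median -0.53). The median was 0.10 within satellite-high and -1.39 within satellite-low libraries, so its direction depends on the library type. The 22 °C libraries differed by a median of -0.95 (replicate 4 minus 7). Of the 16 genes, 14 had lower means in the cold, and within both library types 8 were lower and 2 higher. The riser was Mlycd, malonyl-CoA decarboxylase, which removes the inhibitor of carnitine palmitoyltransferase (82.3 and 109.8 against 274 and 270.0 TPM, log2 fold change 1.51, adjusted p = 0.0372). Scd1, the stearoyl-CoA desaturase, measured 14244 and 28097 against 9124 and 5934 TPM (adjusted p = 0.166) and the lipogenic factor Srebf1 212 and 329 against 82.8 and 118 TPM (adjusted p = 0.058).

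Of 8 fatty acid elongation genes 2 rose (2.40% of all genes rose). Besides Elovl3, the dehydratase Hacd2 of the same cycle rose (26.0 and 41.9 against 185 and 202 TPM, log2 fold change 2.51, adjusted p = 0.0321), and 0 of 8 members fell (median 0.70). Fabp3, a fatty acid carrier of muscle and active BAT, rose (651 and 805 against 2080.4 and 2744 TPM, log2 fold change 1.72, adjusted p = 0.0409) as the only called member of 21 uptake genes. Lipoprotein lipase, Lpl, which frees fatty acids from circulating triglyceride, measured 2538 and 1704 against 4589.5 and 5175 TPM and missed the threshold (adjusted p = 0.0889). In triglyceride synthesis the phosphatidate phosphatases Lpin1 (207 and 249 against 449 and 545 TPM, log2 fold change 1.12, adjusted p = 0.0474) and Lpin3 (5.97 and 4.84 against 12.7 and 14.9 TPM, log2 fold change 1.21, adjusted p = 0.0428) rose out of 20 genes.

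Mitochondrial beta-oxidation showed no called gene among 22 (median -0.12, range -0.98 to 0.74), whereas single oxidative enzymes outside that list moved. Ehhadh, the bifunctional enzyme of peroxisomal beta-oxidation, rose (98.6 and 81.8 against 504.4 and 467 TPM, log2 fold change 2.42, SE 0.18, adjusted p = 0.0225), and it was the only call among 21 peroxisomal genes. Among acyl-CoA thioesterases, Acot5 and Them4 rose and Acot3 fell out of 12. Under each of the other scalings tried 0 thioesterases were called lower, and with deposited FPKM 0 were called higher. Acot5 was low at 0.236 and 0.784 against 4.74 and 3.87 TPM, and close Acot paralogs can share reads. Bdh1, the mitochondrial beta-hydroxybutyrate dehydrogenase, went from 0.382 and 0.281 TPM to 14.1 and 28.1 TPM (log2 fold change 3.98, SE 0.35, adjusted p = 0.0273), while 0 of the other 7 ketone body genes were called.

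Genes of glucose uptake and glycolysis were mostly higher in the cold, and 3 of them passed the test. Of 26 genes of glucose uptake and glycolysis, 3 rose and 1 fell (2.40% and 3.35% of all genes did), 21 were higher in the cold within both library types, and the median log2 fold change was 0.89 against -0.19 over all genes. The risers were the glucose transporter Slc2a1 (5.83 and 5.88 against 17.4 and 14.5 TPM, log2 fold change 1.3, adjusted p = 0.0388), hexokinase 2 or Hk2 (65.7 and 99.3 against 235 and 199 TPM, log2 fold change 1.41, adjusted p = 0.0465) and phosphoglucose isomerase Gpi1 (236 and 274 against 548 and 587 TPM, log2 fold change 1.15, adjusted p = 0.041). They cover entry of glucose and its first steps. Aldoa, aldolase A, stood at 2707 and 3703 against 7560.5 and 10206 TPM with adjusted p = 0.0812. The neuronal enolase Eno2 fell (2.97 and 3.15 against 0.846 and 0.995 TPM). With median centring, quantile normalization, scaling over all gene types or deposited FPKM, 0 genes of the list were called lower. The largest differences in the list, those of Pgam2 and Eno3, belong to muscle forms and came with log2 fold changes of 2.97 and 2.83, against 0.39 and 0.64 with the muscle covariate. The list median was 0.72 in that fit.

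Lactate transporters went in both directions. Slc16a3 (MCT4), which exports lactate, rose (2.66 and 2.24 against 15.9 and 9.37 TPM, log2 fold change 1.94, adjusted p = 0.0399), and Slc16a7 (MCT2), a high-affinity importer, fell (34.1 and 28.5 against 8.47 and 6.76 TPM, log2 fold change -1.91, adjusted p = 0.0321). Slc16a3 was higher at each temperature in the library with more muscle transcript, and the part of muscle in its rise was not tested. Pdk4, the kinase that shuts pyruvate dehydrogenase, measured 1820.3 and 1372 against 4550.4 and 2918 TPM (adjusted p = 0.0994). Of 21 glycogen genes, 15 had higher and 6 lower means in the cold (median 0.46), 3 fell and 0 rose, beside 3.35% and 2.40% of all genes, and with median centring 2 were called higher and 3 lower. Those that fell were the brain-type phosphorylase Pygb (127 and 107 against 38.2 and 35.1 TPM, log2 fold change -1.64, adjusted p = 0.0317), the glycogen-binding protein Stbd1 (7.63 and 6.42 against 1.51 and 2.18 TPM, log2 fold change -1.5, adjusted p = 0.0396) and the phosphatase targeting subunit Ppp1r3e (7.62 and 8.85 against 2.60 and 2.95 TPM, log2 fold change -1.29, adjusted p = 0.0399). The liver-type synthase Gys2, also used by adipocytes, measured 64.3 and 104 against 185 and 199.7 TPM with adjusted p = 0.0607.

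Core mitochondrial lists had medians near 0. No gene was called among 35 complex I subunits (median -0.04), 44 subunits of complexes II to V (median 0.03), 78 mitochondrial ribosomal proteins (median 0.01), 21 enzymes of the tricarboxylic acid cycle (median -0.11) or 17 genes of mitochondrial dynamics and mitophagy (median 0.08). For complex I the members ranged from -0.50 to 0.69, and for complexes II to V, which include muscle forms such as Cox6a2, from -0.91 to 3.49. These medians are close to that of all genes (-0.19). Idh3a, a subunit of isocitrate dehydrogenase, had the largest difference of the cycle at 928 and 1126 against 3038 and 2003 TPM (adjusted p = 0.073).

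Carriers and shuttles of the mitochondrion included called genes. Of 35 mitochondrial carriers and uncoupling proteins, 5 rose and 1 fell (median 0.20), beside 2.40% and 3.35% of all genes. The orphan carrier Slc25a34 rose from 12.7 and 24.1 TPM to 224 and 177 TPM (log2 fold change 3.43, SE 0.33, adjusted p = 0.0301). Slc25a51, a mitochondrial NAD carrier, rose from a high level (411 and 522 against 1055 and 1021 TPM, log2 fold change 1.16, adjusted p = 0.0494), and Slc25a25 (21.8 and 14.7 against 57.5 and 42.0 TPM) and Ucp2 (28.02 and 23.9 against 101 and 61.0 TPM) rose with adjusted p = 0.0496 and 0.0467. The calcium-dependent ATP-Mg carrier Slc25a23 fell (69.4 and 77.8 against 26.1 and 26.6 TPM, log2 fold change -1.45, adjusted p = 0.0321).

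In the malate-aspartate shuttle, which brings reducing equivalents of glycolysis into mitochondria, the cytosolic aspartate aminotransferase Got1 rose from 14.1 and 12.7 TPM to 196 and 178 TPM (log2 fold change 3.71, SE 0.15, adjusted p = 0.0165). Replicates agree closely in both groups. The aspartate-glutamate carrier Slc25a12 rose as well (11.7 and 5.81 against 54.0 and 33.5 TPM, log2 fold change 2.23, adjusted p = 0.0461), and 0 of the other 9 shuttle genes were called. Slc25a12 is abundant in muscle. With the muscle covariate its log2 fold change went from 2.23 to 1.13, and that of Got1 went down too, from 3.71 to 2.46.

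Ckb (chr12:111669355-111672338), the brain-type creatine kinase of which a creatine cycle in thermogenic fat makes use, stood at 39.6 and 32.9 TPM at 22 °C and 856 and 746 TPM at 4 °C (log2 fold change 4.43, SE 0.18, adjusted p = 0.0165). Its log2 fold change was 4.13 with the muscle covariate, where it was 1 of 14 genes still called (adjusted p = 0.0119). Ckm and Ckmt2, the muscle creatine kinases, instead had 3.24 and 3.93, which became 0.19 and 0.87 with the covariate, and neither was called in the 4 libraries.

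Gmpr (chr13:45507444-45546382), guanosine monophosphate reductase, which turns GMP back into IMP, rose from 82.6 and 84.1 TPM to 2362 and 3621 TPM (log2 fold change 5.12, SE 0.26, adjusted p = 0.0189). Impdh1, which catalyses the opposite arm from IMP towards GMP, fell from 232 and 123 TPM to 13.6 and 21.2 TPM (log2 fold change -3.24, SE 0.38, adjusted p = 0.0348). Gmpr lies opposite an Atxn1 transcript, and the pair of enzymes between IMP and GMP moved opposite ways. Ampd2, AMP deaminase 2, fell (32.6 and 32.7 against 4.40 and 7.59 TPM, log2 fold change -2.30, adjusted p = 0.0342) and the adenylate kinase Ak1 rose (62.5 and 51.0 against 205 and 159 TPM, log2 fold change 1.66, adjusted p = 0.0364), and the other 17 of 21 purine genes were not called. At each temperature Ak1 was higher in the library with more muscle transcript, and the part of muscle in its rise was not tested.

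Stress-responsive genes were mostly higher in the cold. Of 39 heat shock and endoplasmic reticulum stress genes, 11 rose and 0 fell, 29 were higher within both library types, and the median was 0.89 (2.40% of all genes rose). Those that rose include the transcription factors Atf4 (137 and 164 against 462 and 341 TPM, log2 fold change 1.40, adjusted p = 0.0428), Atf5 (30.8 and 56.7 against 182 and 172 TPM, log2 fold change 2.05, adjusted p = 0.0401) and Ddit3 or CHOP (36.3 and 36.1 against 112 and 75.6 TPM, log2 fold change 1.32, adjusted p = 0.0451), and the pseudokinase Trib3 (4.64 and 8.91 against 103 and 42.0 TPM, log2 fold change 3.16, adjusted p = 0.0428). Fgf21, a hormone that ATF4 can induce, went from 0.304 and 0.527 TPM to 42.8 and 24.4 TPM (log2 fold change 4.56, SE 0.31, adjusted p = 0.0225). Asparagine synthetase, Asns, a widely used ATF4 target, measured 99.5 and 105 against 111 and 78.1 TPM and did not share the difference (log2 fold change -0.13, adjusted p = 0.701).

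Among the small heat shock proteins Hspb1 rose (107 and 102 against 396 and 407 TPM, log2 fold change 1.93, adjusted p = 0.0225) and kept a log2 fold change of 2.29 with the muscle covariate, whereas Hspb6 (19.5 and 10.4 against 93.2 and 99.2 TPM) went from 2.67 to 0.33. Of 37 aminoacyl-tRNA synthetases, 3 rose and 0 fell (median 0.21), beside 2.40% and 3.35% of all genes. Cars2, the mitochondrial cysteinyl-tRNA synthetase, stood out at 29.2 and 40.2 TPM at 22 °C and 268 and 370.2 TPM at 4 °C (log2 fold change 3.16, SE 0.25, adjusted p = 0.0225), while the cytosolic Aars (31.96 and 35.6 against 77.4 and 64.3 TPM, log2 fold change 1.04, adjusted p = 0.0428) and Cars (13.1 and 15.7 against 33.8 and 27.7 TPM, log2 fold change 1.04, adjusted p = 0.0472) rose about 2-fold or more.

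Promoters of stress genes were searched because ATF4 and its partners bind the composite letters TGATGCAA. On either strand, in the window from 250 bases before to 50 after the start (RefSeq, GRCm38.p6), 87 of 11075 tested genes with a promoter held the letters (0.786%), as did 6 of 307 genes that rose (1.95%) and 3 of 425 that fell (0.706%). Among stress genes Chac1, Fgf21 and Herpud1 held it (3 of 32), among synthetases Aars, Iars, Tars and Yars (4 of 26), and it was also found in front of Got1. The stretches around the match are shown 5′ to 3′ on the strand of the gene for 4 genes, with the match in capitals, which here reads TTGCATCA, the reverse complement.
Fgf21 (chr7:45615582-45615669, minus strand): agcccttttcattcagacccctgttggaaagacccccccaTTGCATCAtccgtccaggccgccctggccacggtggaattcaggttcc
Got1 (chr19:43524660-43524747, minus strand): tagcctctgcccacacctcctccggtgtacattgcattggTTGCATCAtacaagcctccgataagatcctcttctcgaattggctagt
Chac1 (chr2:119351009-119351096, plus strand): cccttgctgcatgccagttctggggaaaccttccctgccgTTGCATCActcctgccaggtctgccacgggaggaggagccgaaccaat
Aars (chr8:111033690-111033777, plus strand): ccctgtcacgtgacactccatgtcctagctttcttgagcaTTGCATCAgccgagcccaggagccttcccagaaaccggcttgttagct
Of these 4, Fgf21, Got1 and Aars rose, and Chac1, a glutathione-degrading enzyme, measured 6.26 and 1.44 against 40.1 and 23.01 TPM with a log2 fold change of 2.90 (adjusted p = 0.0545). The synthetases Iars, Tars and Yars, which also held the letters, were not called. A match describes the letters only.

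Interferon-stimulated genes were mostly lower in the cold. Of 28 tested members, 14 fell and 0 rose (3.35% of all genes fell), 27 were lower within both library types, and the median log2 fold change was -1.08. The summed level of the list overlapped between the groups, at 2842 and 1889 TPM at 22 °C and 1741 and 2803 TPM at 4 °C. The largest falls were those of the guanylate-binding proteins Gbp3 (21.1 and 32.1 against 5.03 and 6.58 TPM, log2 fold change -2.0, SE 0.27, adjusted p = 0.0375) and Gbp2 (58.6 and 66.1 against 15.0 and 17.3 TPM, log2 fold change -1.89, SE 0.16, adjusted p = 0.027). Ifit3, an antiviral RNA-binding protein, fell (13.1 and 17.6 against 3.81 and 4.04 TPM, log2 fold change -1.72, adjusted p = 0.0364), as did viperin, Rsad2 (8.92 and 10.2 against 2.08 and 2.75 TPM, log2 fold change -1.63, adjusted p = 0.0364), and the cytosolic RNA sensor Ddx58 or RIG-I (26.8 and 26.3 against 9.55 and 9.33 TPM, log2 fold change -1.40, adjusted p = 0.0342). In each of these genes, chosen by the call, both cold libraries lay below both 22 °C libraries (5.28% of all genes were apart and lower).

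The machinery that presents antigen followed the same pattern. Of 23 genes of the major histocompatibility complex (MHC) and antigen processing, 10 fell and 0 rose, and 23 were lower within both library types (median -1.01). Tap1, the peptide transporter, fell from 27.5 and 36.4 TPM to 5.65 and 7.94 TPM (log2 fold change -2.08, SE 0.24, adjusted p = 0.0346). The immunoproteasome subunits Psmb9 (21.8 and 30.1 against 7.16 and 5.35 TPM, log2 fold change -1.89, adjusted p = 0.0364) and Psmb8 (50.2 and 67.4 against 14.7 and 19.2 TPM, log2 fold change -1.73, adjusted p = 0.0372) fell, the only falls among 39 proteasome genes. Tap1 and Psmb9 lie head to head and overlap on opposite strands. H2-Q4, H2-Q6 and H2-Q7 also fell, though near-identical class I genes can share reads. Cxcl9, a chemokine induced by interferon-gamma, fell from 26.9 and 22.7 TPM to 5.35 and 5.79 TPM (log2 fold change -1.97, SE 0.18, adjusted p = 0.0275).

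How many of these genes pass depends on the scaling. With median centring 10 interferon and 6 MHC genes were called lower, and with deposited FPKM 1 of each, with medians of -0.46 and -0.48 there against 0.07 over all genes. With the muscle covariate the medians were -0.28 for interferon genes and -0.94 for MHC genes. Lymphoid markers had 0 called genes of 11 (median -0.60), and 10 were lower within both library types. They summed to 26.9 and 28.8 TPM at 22 °C and 15.2 and 12.3 TPM at 4 °C. Of 4 tested neutrophil markers 1 fell, beside 3.35% of all genes, and all 4 were lower within both library types (median -0.57). Macrophage markers had 0 called genes of 11 (median 0.02, sums of 560 and 410 against 647 and 395 TPM). Their part in the result was not tested.

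**Figure D2:**
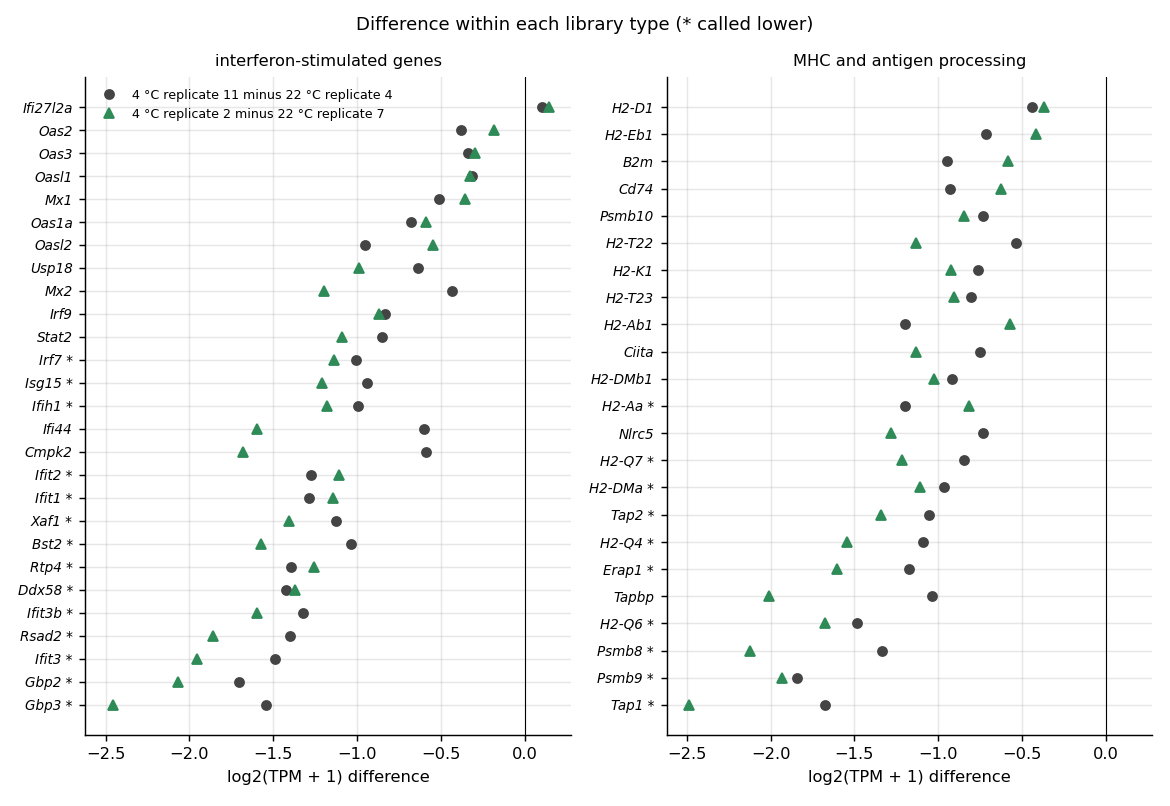
Difference in log2(TPM + 1) between 4 °C and 22 °C for the interferon-stimulated genes shown (left) and each MHC or antigen processing gene (right), within the satellite-high libraries (circles) and within the satellite-low libraries (triangles); an asterisk marks a gene called lower. Except for Ifi27l2a, all interferon genes shown lie below 0 in both library types, and so do all 23 MHC genes.

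Interferon genes are bound through an element that reads GAAA, 2 bases of any kind and GAAA, and its letters were looked for in the same promoters on either strand. They were present in 434 of 11075 genes (3.92%), in 45 of 425 genes that fell (10.6%), in 10 of 307 genes that rose (3.26%), in 13 of 21 interferon genes with a promoter and in 4 of 18 MHC genes. Since the interferon list is made of known targets, its count is no independent evidence. The element is shown in 4 genes that fell, in capitals, as it reads on the strand of the gene.
Gbp3 (chr3:142559959-142560054, plus strand): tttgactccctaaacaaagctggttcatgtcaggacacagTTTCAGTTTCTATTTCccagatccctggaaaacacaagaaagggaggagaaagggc
Ifit3 (chr19:34583333-34583456, plus strand): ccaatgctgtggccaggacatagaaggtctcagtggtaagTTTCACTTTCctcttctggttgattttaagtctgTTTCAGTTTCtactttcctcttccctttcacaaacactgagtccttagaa
Rsad2 (chr12:26456523-26456612, minus strand): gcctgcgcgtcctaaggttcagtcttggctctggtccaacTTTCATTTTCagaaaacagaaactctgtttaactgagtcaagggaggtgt
Isg15 (chr4:156200835-156200936, minus strand): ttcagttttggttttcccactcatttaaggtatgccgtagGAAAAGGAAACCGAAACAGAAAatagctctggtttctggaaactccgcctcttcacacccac
Ifit3 and Gbp3 hold 2 matches each and Isg15 holds 3, overlapping in Gbp3 and Isg15. Isg15, the ubiquitin-like modifier, was low but fell (2.69 and 3.35 against 0.881 and 0.920 TPM, log2 fold change -1.08, adjusted p = 0.0436).

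Clock genes changed in both directions. Of 23 tested, 3 rose and 5 fell (median -0.21), beside 2.40% and 3.35% of all genes. Arntl (BMAL1), the partner of CLOCK, rose from 1.79 and 2.79 TPM to 44.2 and 19.1 TPM (log2 fold change 3.21, SE 0.43, adjusted p = 0.0375), the CLOCK homologue Npas2 rose (0.294 and 0.246 against 2.32 and 1.46 TPM), and Nfil3, a repressor of D-box genes, rose (6.30 and 6.00 against 54.5 and 49.7 TPM, log2 fold change 2.89, SE 0.16, adjusted p = 0.0189). Falls included the D-box activators Dbp (58.9 and 67.5 against 14.6 and 21.9 TPM, log2 fold change -1.76, adjusted p = 0.0375) and Hlf (16.0 and 18.6 against 4.54 and 5.77 TPM, log2 fold change -1.57, adjusted p = 0.0364), Per3 (22.1 and 24.7 against 4.95 and 8.25 TPM, log2 fold change -1.71, adjusted p = 0.0403) and Bhlhe41 (9.62 and 9.16 against 2.69 and 1.72 TPM, log2 fold change -1.71, adjusted p = 0.0372). Arntl2, a paralog of Arntl, was the other member that fell (8.14 and 11.6 against 3.30 and 3.47 TPM, log2 fold change -1.29, adjusted p = 0.0463). The hour at which each group was killed is not given in the sources used here.

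Glucocorticoid-responsive genes were mostly higher: of 19, 8 rose and 0 fell, 17 were higher within both library types, and the median was 1.3 (2.40% of all genes rose). The cell cycle inhibitor Cdkn1a (37.9 and 24.1 against 422 and 301 TPM, log2 fold change 3.52, SE 0.29, adjusted p = 0.0243), Cebpd (4.25 and 3.41 against 33.3 and 21.5 TPM, log2 fold change 2.53, adjusted p = 0.0326) and the mTOR inhibitor Ddit4 (11.4 and 14.3 against 70.5 and 85.0 TPM, log2 fold change 2.51, SE 0.19, adjusted p = 0.0225) had the largest rises. Metallothioneins Mt1 (748 and 943 against 2157 and 1989.9 TPM) and Mt2 (234 and 362 against 1202 and 817 TPM) rose with adjusted p = 0.0496 and 0.0479. The receptor co-chaperone Fkbp5, often used as a read-out of the hormone, measured 21.1 and 6.48 against 85.5 and 83.4 TPM and missed the threshold (adjusted p = 0.0503). With the muscle covariate the median of the list was 1.78. Letters resembling a glucocorticoid element (GNACA, 3 bases of any kind and TGTNC) were in 51 promoters (0.460%), 9 of them of genes that rose (2.93%) and 2 of genes that fell (0.471%), among them Fam107a, Mt1 and Sgk1 of the list.

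Of 26 immediate early genes, 2 rose and 0 fell (median -0.40), beside 2.40% of all genes that rose. The median was 0.15 within satellite-high and -0.65 within satellite-low libraries. The risers were Maff (7.99 and 5.49 against 51.3 and 49.6 TPM, log2 fold change 2.75, adjusted p = 0.0225) and Fosl2 (9.33 and 11.1 against 23.4 and 34.7 TPM, log2 fold change 1.40, adjusted p = 0.0457). Nr4a1, which beta-adrenergic stimulation induces within minutes, ranged from 9.78 to 95.3 TPM with overlapping groups (adjusted p = 0.284).

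Of 29 batokine and TGF-beta family genes, Fgf21 included, 6 rose and 0 fell (median 0.06), beside 2.40% and 3.35% of all genes. Bmp8b, which brown fat secretes and which sensitises it to noradrenaline, went from 0.411 and 0.267 TPM to 3.58 and 5.09 TPM (log2 fold change 1.98, SE 0.21, adjusted p = 0.0338). Epdr1 (5.77 and 2.95 against 30.4 and 19.9 TPM, log2 fold change 2.31, adjusted p = 0.0403), the growth factor Fgf9 (0.930 and 0.999 against 3.87 and 5.02 TPM, log2 fold change 1.46, adjusted p = 0.0375), the prostaglandin D synthase Ptgds (5.75 and 4.27 against 13.3 and 18.1 TPM, log2 fold change 1.47, adjusted p = 0.0428) and S100b, a calcium-binding protein that favours sympathetic innervation (38.1 and 40.3 against 79.2 and 88.7 TPM, log2 fold change 1.08, adjusted p = 0.0388), rose too. S100b is also 1 of 5 tested Schwann cell and neuron markers, of which 2 rose and 0 fell (median 0.77). The sums of these markers were 63.8 and 68.0 against 140.3 and 133 TPM, and their part in the S100b result was not tested. Gdf15, a stress hormone, was higher in both cold libraries but uneven (0.328 and 0.103 against 18.0 and 2.54 TPM, adjusted p = 0.0975).

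Growth factor systems held strong single changes. Igfbp3, a carrier of insulin-like growth factors, rose (16.5 and 22.4 against 113 and 114 TPM, log2 fold change 2.50, SE 0.19, adjusted p = 0.0225), whereas Igfbp5 fell (50.8 and 38.7 against 12.5 and 13.5 TPM, log2 fold change -1.70, adjusted p = 0.0342), and the other 26 of 28 insulin and IGF genes were not called. Npr3, the clearance receptor of natriuretic peptides, rose (30.6 and 23.2 against 115 and 88.0 TPM, log2 fold change 1.88, adjusted p = 0.0351), the only call among 5 natriuretic peptide genes. Of 22 angiogenesis genes 1 rose and 2 fell: the placental growth factor Pgf (1.35 and 0.998 against 4.22 and 4.92 TPM, log2 fold change 1.36, adjusted p = 0.0394), Aplnr and Angpt1, a ligand that stabilises vessels (30.4 and 22.5 against 4.78 and 3.69 TPM, log2 fold change -2.38, adjusted p = 0.0302). Endothelial markers had 0 called genes of 10 (median 0.03), with sums of 965 and 973 against 732 and 1126 TPM. Of 15 innervation genes only Ntrk3 was called. Among 30 collagen chains 4 fell and 0 rose (median -0.53; 3.35% of all genes fell), all 4 below 5 TPM, and Col3a1 measured 447 and 253 against 102 and 124 TPM (adjusted p = 0.0537). With median centring 0 collagen chains were called lower and 1 was called higher (median -0.36). Fibroblast and preadipocyte markers, which share Col1a1 and Col1a2 with this list, had 9 of 10 means lower and 0 called (median -0.45, sums of 1045 and 669 against 930 and 619 TPM), and their part in the collagen values was not tested.

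**Figure D3:**
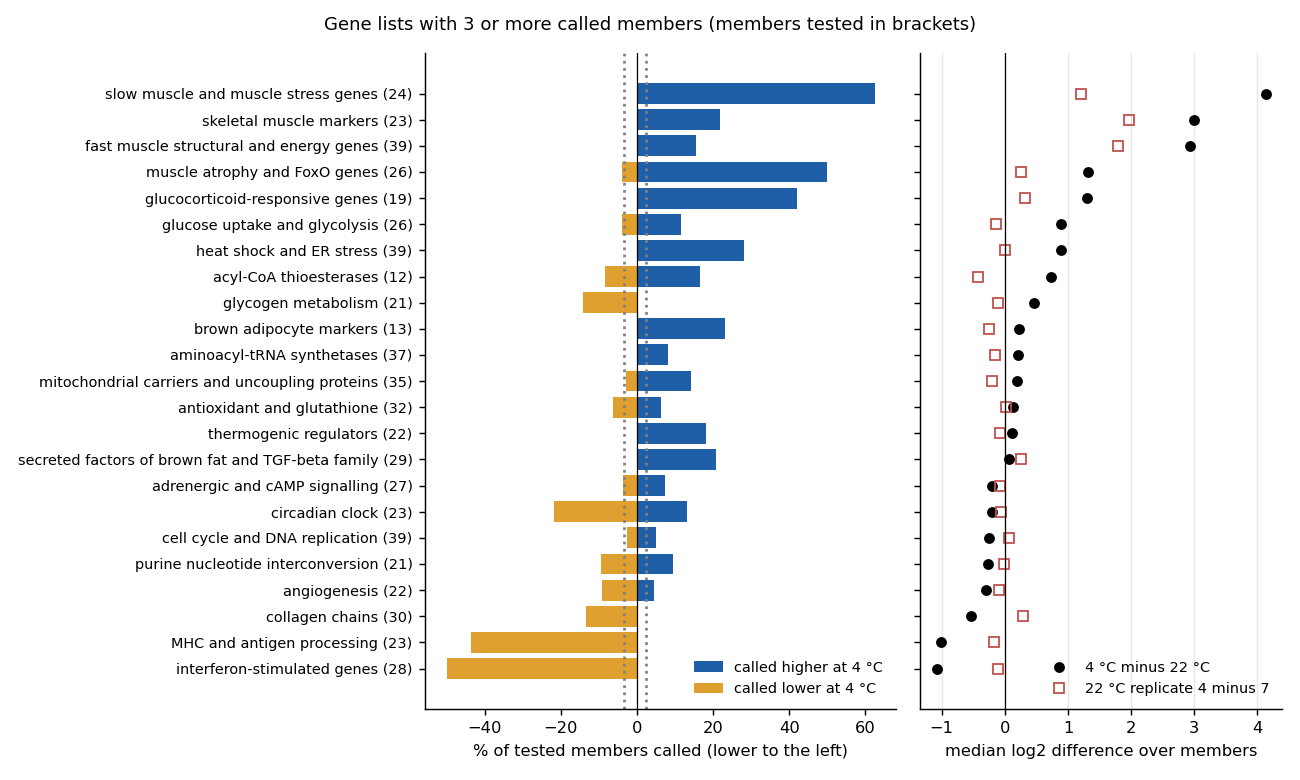
Lists with 3 or more called members. Left, percent of tested members called higher (blue) or lower (orange) at 4 °C, with dotted lines at the 2.40% and 3.35% of all genes; right, median log2 difference between 4 °C and 22 °C (black) and between the 22 °C replicates 4 and 7 (open squares). For the muscle markers and the fast and slow muscle lists the 22 °C libraries themselves differ by 1.2 to 1.97, whereas for the atrophy, interferon, stress and glucocorticoid lists that median difference is 0.32 or less in size. Of the 26 atrophy and FoxO genes, 21 were nevertheless higher in 22 °C replicate 4 than in replicate 7, Trim63 and Fbxo40 among them.

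Genes of skeletal muscle were higher in the cold, and they also differed between libraries of the same temperature. All 23 tested skeletal muscle markers were higher in both cold libraries than in both 22 °C libraries with mean log2 levels at least 1 apart (4.39% of all genes were), and the median log2 fold change was 3.0. Of the 23, 5 rose, and replicates differed from each other: the markers were a median of 1.97 higher in 22 °C replicate 4 than in replicate 7, and 0.79 higher in 4 °C replicate 2 than in replicate 11. Ckm, muscle creatine kinase, shows both (573 and 109.7 TPM at 22 °C and 3403 and 1669.6 TPM at 4 °C, log2 fold change 3.24, SE 0.85, adjusted p = 0.0828). The size of the difference therefore depends on the pair of libraries: the median was 1.54 within satellite-high and 4.33 within satellite-low libraries. When libraries were scaled to the sum over autosomal genes of every type, all 23 were called, in a fit where limma gave every gene the spread of the trend.

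The fast muscle list shares 19 of its 39 genes with the markers and is no separate evidence. Of 39, 6 rose and 0 fell (2.40% of all genes rose), 38 were higher in both cold libraries by the same criterion, and the median was 2.94, with 1.80 between the 22 °C libraries. Those called were Actn2 (6.81 and 2.12 against 202 and 77.9 TPM, log2 fold change 4.68, adjusted p = 0.0375), Ldb3, Mybpc1, Ryr1, Mylk2 and Neb. With the muscle covariate the list's median was 0.31, and that of the markers, which define the covariate, was 0.03.

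Slow fibre and muscle stress genes were also higher. Of 24, 15 rose and 0 fell (2.40% of all genes rose), and the median was 4.13, with 1.2 between the 22 °C libraries. Scaling over all gene types gave 21 calls of 24 here and 36 of 39 in the fast list. Ankrd2 (2.39 and 1.55 against 318 and 177 TPM, log2 fold change 6.34, SE 0.33, adjusted p = 0.0189) and Csrp3 (7.97 and 1.92 against 486 and 250.2 TPM, log2 fold change 6.09, SE 0.62, adjusted p = 0.0319), which respond to stretch of the sarcomere, and the chaperone Hspb7 (3.54 and 1.60 against 173 and 97.9 TPM, log2 fold change 5.25, SE 0.39, adjusted p = 0.0225) were among the largest rises, together with slow-fibre troponin Tnni1 and myosin light chain Myl2. Slow-fibre myosin Myh7 went from 2.87 and 0.399 TPM to 65.4 and 78.0 TPM (log2 fold change 4.96, SE 0.50, adjusted p = 0.0319). With the muscle covariate the median of the list was 1.57, and 15 of 24 stayed at 1 or more, among them Ankrd2 (4.63), Hspb7 (4.09) and Csrp3 (3.77). 

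Genes of muscle atrophy were also called. Of 26 atrophy and FoxO genes, 13 rose and 1 fell (median 1.31), beside 2.40% and 3.35% of all genes. The ubiquitin ligases Trim63 or MuRF1 (4.46 and 0.964 against 298 and 286 TPM, log2 fold change 6.48, SE 0.49, adjusted p = 0.0225), Fbxo32 or atrogin-1 (5.86 and 4.65 against 121 and 68.8 TPM, log2 fold change 3.89, SE 0.31, adjusted p = 0.0225) and Fbxo40 (3.79 and 1.41 against 39.98 and 22.0 TPM, log2 fold change 3.17, adjusted p = 0.0388) rose, with 4.03, 2.60 and 1.75 in the covariate fit. Gabarapl1, an autophagy gene used by many cell types, rose (175 and 168 against 435 and 424 TPM, log2 fold change 1.32, adjusted p = 0.0351), and Eif4ebp1, a brake on translation, fell (371 and 337 against 163 and 165 TPM, log2 fold change -1.11, adjusted p = 0.0396). With median centring, quantile normalization, scaling over all gene types or deposited FPKM, 0 genes of this list were called lower. Several members, among them Klf15, Cdkn1a, Cebpd, Ddit4, Mt1 and Mt2, are also in the glucocorticoid list. The myogenic factor Myf6 rose (1.84 and 0.460 against 27.9 and 16.6 TPM, log2 fold change 3.47, adjusted p = 0.0352). Mature muscle fibres express it. The letters CTAAAAATA, bound by MEF2 factors, were in 48 promoters (0.433%), 6 of 307 genes that rose (1.95%) and 0 of 425 that fell.

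**Figure D4:**
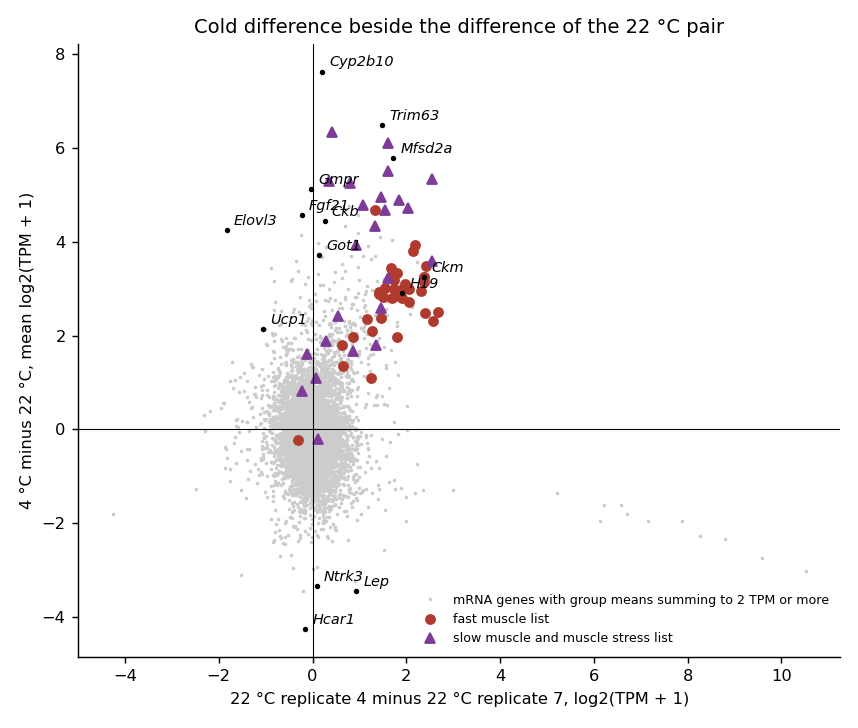
Difference between 4 °C and 22 °C (vertical axis) beside the difference between the 22 °C replicates 4 and 7 (horizontal axis), both on log2(TPM + 1), for mRNA genes (grey), fast muscle genes (red circles) and slow muscle and muscle stress genes (purple triangles); black dots are named genes. Most muscle genes lie to the upper right, Ckm among them, and the named gene H19 lies there too. Cyp2b10, Gmpr, Ckb, Got1, Hcar1 and Ntrk3 lie near 0 on the horizontal axis.

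Ratios between related genes within a library do not depend on scaling. Of 19 listed pairs measured, 13 had a higher log2 ratio in both cold libraries and 2 a lower one. Not every pair sets muscle against other tissue, since Cox7a1, Slc2a4, Fabp4 and Gys2 are also adipocyte genes and Aldoc and Ckb brain forms, so the count describes the listed pairs only. A ratio also moves with its second gene, and of these Ampd2 fell while Ckb and Slc2a1 rose. For Cox6a2 over Cox6a1, subunits of cytochrome c oxidase, the log2 ratio was -6.79 and -9.49 at 22 °C and -3.57 and -4.62 at 4 °C. For the calcium pumps Atp2a1 over Atp2a2 it was 1.74 and -0.31 at 22 °C and 4.40 and 2.06 at 4 °C, so that 4 °C replicate 11 and 22 °C replicate 4 were close. The glycogen phosphorylases Pygm over Pygl gave -1.92 and -4.57 against -0.03 and -1.42. The creatine kinases ran differently: Ckm over Ckb was 3.86 and 1.74 at 22 °C and 1.99 and 1.16 at 4 °C, so the groups overlapped. The glucose transporters Slc2a4 over Slc2a1 had a lower log2 ratio in both cold libraries (5.95 and 6.11 against 4.58 and 5.39).

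**Figure D5:**
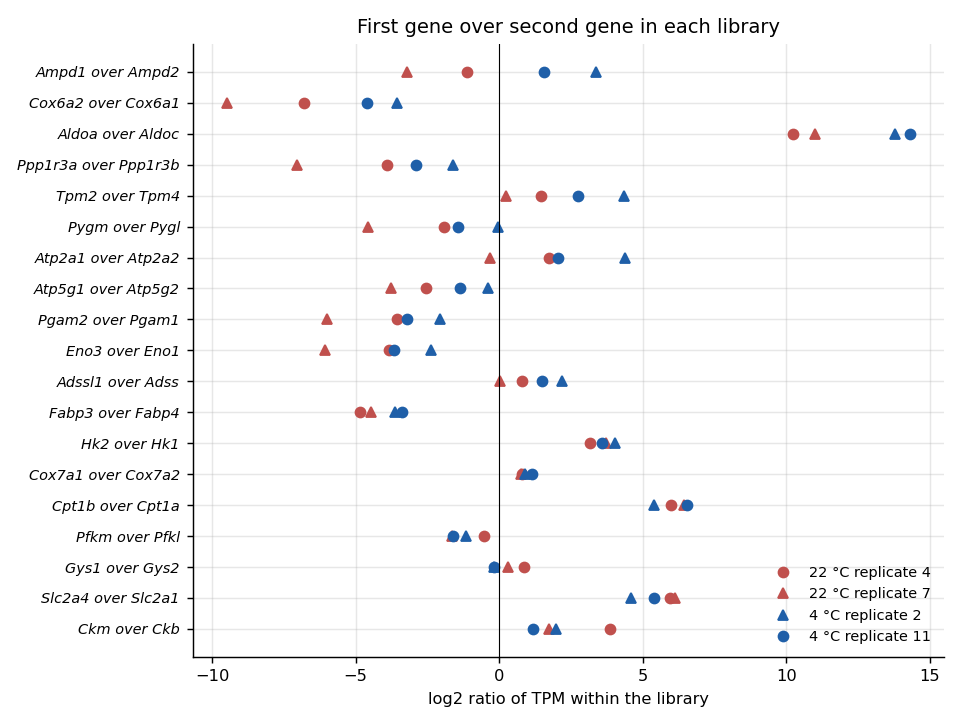
Log2 ratio of TPM between the 2 genes of each pair within each library (red 22 °C, blue 4 °C, circles satellite-high, triangles satellite-low). In pairs such as Cox6a2 over Cox6a1 or Ampd1 over Ampd2 both blue symbols lie to the right of both red ones, and 22 °C replicate 7 lies farthest to the left. Ampd2 itself fell, so the ratio of Ampd1 over Ampd2 does not follow Ampd1 alone.

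Adding muscle marker content to a fit of all 8 libraries of the series, which include 4 libraries of mice 32 weeks old after 28 weeks of control diet (normal chow in the labels) or high-fat diet, gave the muscle covariate values printed throughout. That fit called 14 genes, 8 higher and 6 lower. Ckb, Fgf21, Sdc4 and Csrp3 were among those higher, and Hcar1, Ntrk3 and Svep1 among those lower. Of the 419 genes that rose, 334 kept an estimate of 1 or more in it, and of the 586 that fell, 424 kept one of -1 or less. The muscle score differs between the temperatures, so the covariate and the cold share much of their variation. For Ucp1 the estimate was 2.68, for Elovl3 4.82, for Cyp2b10 7.29, and for H19 0.34.

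H19, an imprinted lncRNA that muscle also expresses, measured 20.95 and 4.84 TPM at 22 °C and 110.1 and 63.9 TPM at 4 °C (log2 fold change 2.91, SE 0.68, adjusted p = 0.0676) and was not called. Its 22 °C libraries differed in the same direction as the muscle markers, with the higher value in replicate 4, and the difference was 1.56 within satellite-high and 4.25 within satellite-low libraries. In the fit with muscle score its estimate was 0.34 (adjusted p = 0.542). The part of muscle in the difference of H19 was not otherwise tested.

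Among lncRNA genes, the 5 largest rises were Gm17116, Gm29408, Gm11714, Gm20400 and Gm12840, and the 5 largest falls Gm9961, Gm15551, Gm9885, Gm14233 and 1810059H22Rik. Gm12840 was the most abundant of these risers, at 109.7 and 102 TPM at 22 °C and 649.9 and 725 TPM at 4 °C (log2 fold change 2.69, SE 0.17, adjusted p = 0.0216), with the libraries of each group close to each other. Gm20400, which overlaps Slco1a6 on the opposite strand, stood at 0.635 and 0.741 against 11.7 and 10.3 TPM (log2 fold change 2.83, adjusted p = 0.0216). Gm11714, on the strand opposite Pitpnc1, stood at 0.559 and 1.57 against 27.8 and 10.5 TPM (log2 fold change 3.18, adjusted p = 0.0428). Gm9885 lies antisense within Ntrk3 and fell with it (4.56 and 5.11 against 0.295 and 0.423 TPM, log2 fold change -2.10, adjusted p = 0.0241). As above, such antisense partners may share reads.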

How the data were processed

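The authors aligned paired-end reads of rRNA-depleted libraries to GRCm38 with Tophat2 and Cufflinks (QuickNGS 1.2.7, Ensembl 87) and deposited FPKM per gene. Cufflinks is 2.1.1 in the methods and 2.2.1 in the submitters' processing notes. No raw counts were used here. Each library's FPKM was rescaled to TPM over autosomal mRNA and lncRNA genes. Genes with at least 0.1 FPKM in 2 libraries were tested by limma 3.58.1 (R 4.3.3, trend, two-sided) on log2(TPM + 1), with Benjamini-Hochberg adjustment over all 17470 genes, so fold changes of low genes are understated. The members, lists and rules were chosen with earlier results of these data known. Named genes were the 10 largest rises and falls among mRNA genes, the 5 largest among lncRNA genes, up to 4 of each list and a set of defining genes; further list members were chosen after their values were seen. Gene types came from GENCODE M21. The 19 alternatives changed scaling, pseudocount, filter, variance step, covariates or libraries. The other 4 libraries (older mice on control or high-fat diet) entered only the fits over all 8, that with the muscle covariate included. Some list members are not reported here by name.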

Additional observations from a re-analysis of the deposited data

How the results depend on the processing

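With FPKM as deposited 252 genes were called, 213 higher and 39 lower, and 1049 had groups apart, 125 of them lower. Scaling over all gene types gave 285 lower, median centring 296 lower (537 apart and lower) and quantile normalization 293 lower (608 apart and lower). Rises made up 61.5%, 46.7% and 60.1% of calls when scaling over all gene types, without Ucp1 and muscle genes, and by quantiles. A pseudocount of 5 gave 536 calls, 242 lower (797 apart, 454 higher and 343 lower), and a pseudocount of 0.1 gave 3151 genes apart, 2039 lower. Without a filter limma called 0 genes, 0 higher and 0 lower, with 5905 at an unadjusted p under 0.05. With all 8 libraries and the muscle score 14 were called, 8 higher and 6 lower. Leaving out 1 library gave 0 to 114 calls, 0 to 94 higher and 0 to 20 lower, a muscle marker difference of 1.96 to 3.89 and 14 isoform pairs higher each time. The cause of these shifts was not tested. Signs changed for Asns (0.28 with deposited FPKM, 0.043 with median centring, -0.38 to 0.12 leaving out 1 library, and 0.0027 with the muscle score) and for Cidea (0.13 with deposited FPKM). The 22 °C and 4 °C libraries share no replicate number, so they could not be paired by replicate. Library type, which the labels do not give as a pairing, entered as a covariate and gave 1068 calls, 503 higher and 565 lower. Depth was read only as the TPM worth of 1 fragment, and 2 libraries per group limit the precision.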

Other observations

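Lists not described above gave few called genes, beside 2.40% and 3.35% of all genes that rose and fell, and nothing is read from their counts. Of 20 cholesterol synthesis and uptake genes 1 fell, squalene synthase Fdft1, and of 32 antioxidant and glutathione genes 2 rose (Mt1 and Mt2) and 2 fell (Gpx8 and Txn1). Of 18 heme and iron genes 1 fell, the metalloreductase Steap4, and of 21 branched-chain amino acid genes 1 rose, Mcee. Among 79 cytosolic ribosomal proteins 0 were called (median -0.17) in limma. Proliferation markers had 0 called genes of 11, and all 11 were lower within both library types (median -0.42). Fdft1, Gpx8, Txn1, Steap4 and Mcee were chosen after their values were seen.

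Other letters searched on either strand of the same promoters were CACGTG, the E-box of clock factors, in 11.2% of all genes, 7.82% of genes that rose and 9.65% of genes that fell, and the cAMP response element in 3.35%, 2.61% and 1.88%. The D-box was in 0.731%, 0.326% and 1.18%, the response element of estrogen-related receptors in 0.370%, 1.3% and 0.235%, and the heat shock element in 0.623%, 0% and 1.18%. The gamma-activated site was in 1.57%, 2.28% and 1.88%. The remaining 5 of the 15 motifs were shorter, longer or looser forms of these elements or a PPAR element, which 4 genes held, with 0 of them called.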
